A study of Mus musculus with 6 samples.

Results

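The genes of leukaemia inhibitory factor (LIF) signalling and of its shared receptor subunit gp130 were examined in DR4 mouse embryonic fibroblasts. The members were chosen by name as 10 genes: the cytokines Lif, Il6, Il11, Ctf1 and Clcf1, the receptor subunits Lifr, Il6st and Osmr, the transcription factor gene Stat3 and the inhibitor gene Socs3. They were measured by 22 of 22626 probe sets on the Affymetrix array MOE430A and by 3 of 22511 on its companion MOE430B, a probe set being a group of short oligonucleotides against 1 transcript, and made up 10 of 18193 genes with a single symbol. All 25 probe sets carried 1 of these symbols in the platform annotation, both under its older and under its current name. DR4 fibroblasts serve as a feeder layer for embryonic stem cells and were taken from day 15 embryos, per the labels, which list them as a control beside J1, R1 and V6.5 embryonic stem cells. Total RNA of 3 replicates was hybridized to both array types, which makes 6 arrays of 1 condition. All cells were grown on 0.1% gelatin at 37 C and 5% CO2 in D-MEM with 15% heat-inactivated serum, Glutamax, sodium pyruvate, non-essential amino acids, antibiotics, beta-mercaptoethanol and added LIF. No arrays of cells without LIF are part of the design, so nothing here separates a response to LIF from the resting level. Replicate 1 came from 12x10e6 cells with RNA at 2.4 ug/ul, and replicates 2 and 3 from 3x10e6 cells each at 3.0 ug/ul. The labels do not say whether the replicates were separate cultures, so the variation among them may be technical. A p-value here covers no more than how these samples vary, and its variance was mostly borrowed from other probe sets.

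LIF and its relatives are secreted cytokines that share gp130, encoded by Il6st, as the subunit that passes the signal into the cell. LIF and cardiotrophin pair gp130 with the LIF receptor, oncostatin M pairs it with the oncostatin M receptor, and interleukin 6 and interleukin 11 first bind receptors of their own that then recruit gp130. JAK kinases on the receptors phosphorylate STAT3, which enters the nucleus and switches on its targets, among them Socs3, whose product binds gp130 and JAK and damps the signal. In mouse embryonic stem cells this pathway holds back differentiation, and a supply of LIF is one known service of a feeder layer.

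Upstream sequence from RefSeq (GRCm38.p6) is shown for the genes that mark the pathway's output and its shared receptor, Socs3 and Il6st. Each line holds the 250 bases before a start site on the gene's own strand, at chr11:117969367-117969616 on the minus strand for Socs3 and at chr13:112463820-112464069 on the plus strand for Il6st. Capitals mark TTCNNNGAA, the palindrome that STAT factors are known to bind, which reads alike on both strands.
Socs3: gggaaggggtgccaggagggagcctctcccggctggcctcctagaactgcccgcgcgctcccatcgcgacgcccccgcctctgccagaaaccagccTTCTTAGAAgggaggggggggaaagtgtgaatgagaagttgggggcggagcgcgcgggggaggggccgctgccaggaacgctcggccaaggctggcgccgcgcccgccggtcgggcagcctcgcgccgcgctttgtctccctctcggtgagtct
Il6st: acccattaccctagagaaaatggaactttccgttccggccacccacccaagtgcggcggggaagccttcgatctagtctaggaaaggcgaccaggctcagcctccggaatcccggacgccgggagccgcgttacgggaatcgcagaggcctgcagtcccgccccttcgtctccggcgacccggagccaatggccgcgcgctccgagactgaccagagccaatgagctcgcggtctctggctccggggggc
Promoters of 9 of the 10 members were in the table, Clcf1 being named only. Socs3 held 1 match, which began 154 bases before the start site, and none of the other 8 held one in this window. Of all 27025 genes in the table, 8.13% held a match in a window of this length. A match describes the letters and does not show a bound site.

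A signal was set against a floor, the median signal of its own array, which on MOE430A was 689, 685 and 734 for replicates 1, 2 and 3, and on MOE430B 849, 917 and 907. A median puts 50% of the probe sets below it by construction, so a probe set under the floor is dim on this array and its gene is not shown to be silent. The receptor subunit genes Il6st and Osmr, the transducer Stat3, the inhibitor Socs3 and the ligand genes Ctf1 and Clcf1 had at least 1 probe set above the floor on all 3 arrays, 6 of 10 genes (60%, against 54.7% of all genes). Lif, Il6, Il11 and Lifr had none. At the median floor the members fell cleanly on either side. On MOE430A 13 of 22 probe sets were above it on all 3 arrays (42.4% of all probe sets were) and the other 9 on none. Of all MOE430A probe sets, 15.1% were above it on 1 or 2 arrays. On MOE430B all 3 member probe sets were above it on all 3 arrays, against 37.2% of all. With the array's 75th percentile as the floor 4 genes were left, Il6st, Osmr, Stat3 and Socs3 (40%, against 30.4% of all genes). With a fixed signal of 200 there were 8 (80%, against 79.7% of all genes). Lifr and Il11 were added there, and Lif and Il6 stayed below on at least 1 array. Neither of these floors split the member probe sets cleanly: Ctf1 was above the 75th percentile on 1 array, and Il6 above 200 on 2. In bulk RNA, fewer cells that express a gene and less RNA in each cell cannot be told apart. Each probe set binds with its own strength, so the signals below do not rank the genes.

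**Figure D1:**
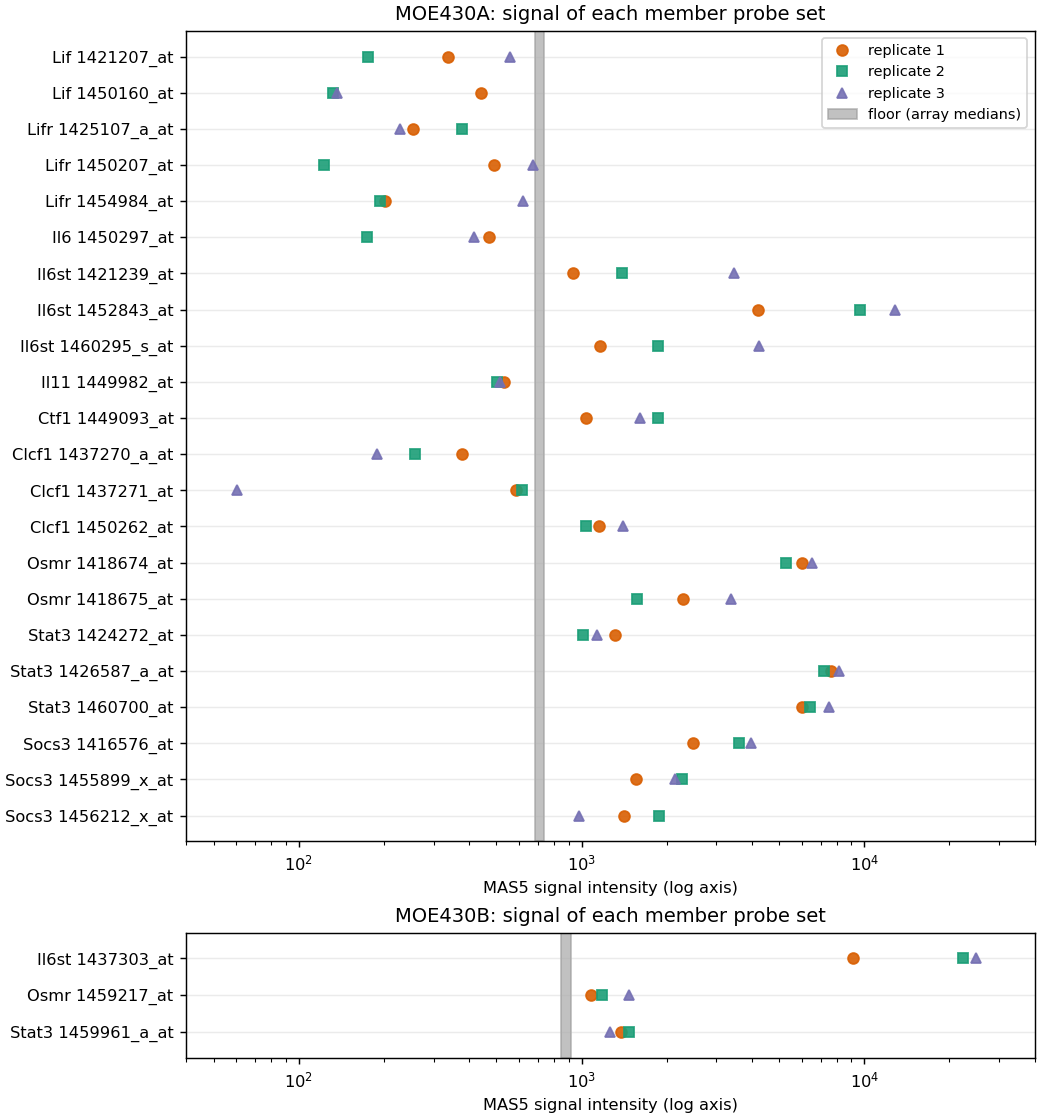
MAS5 signal intensity (log axis) of the 22 MOE430A and 3 MOE430B probe sets of the 10 genes, 1 symbol per replicate, with the range of the array medians as a grey band. All probe sets of Lif, Lifr, Il6 and Il11 and 2 of 3 of Clcf1 lie left of the band in every replicate, and the other 16 lie right of it.

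The ligand genes were dim or moderate. Lif had a signal of 338, 176 and 560.1 in replicates 1, 2 and 3 on probe set 1421207_at, which gives 358 ± 193 (SD, n = 3 arrays). Its other probe set, 1450160_at, had 441, 132 and 137. All these values were under the floor, and the replicates were not in the same order on both probe sets, with replicate 3 highest on one and near the lowest on the other. Both Lif probe sets were designed from 1 source sequence. Il6, an inflammatory cytokine gene, had 469, 175 and 418 on its only probe set, with replicate 2 the lowest. Il11, a cytokine gene of stromal cells, had 533, 501 and 515, the tightest of all members (516 ± 16.1, SD, n = 3), at 0.70 to 0.77 of the floor. Ctf1, the gene of cardiotrophin, had 1041, 1858 and 1612 and lay 1.51 to 2.71 times above the floor. Clcf1 encodes a cytokine-like factor that signals through gp130 and the LIF receptor. Its probe set 1450262_at had 1157, 1033 and 1404, all above the floor. The other Clcf1 probe sets, which share a source sequence, were under it, with 378, 257 and 189.6 on 1437270_a_at and 589, 614 and 60.6 on 1437271_at. The call of Clcf1 as above the floor thus rested on 1 of its 3 probe sets, while that of Ctf1 rested on its only one.

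The receptor subunits differed among themselves in the same way on every probe set. All 4 probe sets of Il6st were above the floor on all 3 arrays, and so were all 3 of Osmr, but none of 3 of Lifr was on any array. Lifr had 254, 377 and 228 on 1425107_a_at, 492, 122 and 671 on 1450207_at, and 202, 194 and 623 on 1454984_at. Its highest value, in replicate 3 on 1450207_at, came to 0.91 of that array's floor. Osmr, the oncostatin M receptor gene, had 6022, 5290.1 and 6539 on 1418674_at (5950.4 ± 628, SD, n = 3), a range of 1.24-fold. On 1418675_at, designed from the same source sequence, it had 2291, 1573 and 3386, a range of 2.15-fold, and on MOE430B it had 1080.2, 1179.8 and 1471. Replicate 3 was the highest on each Osmr probe set, and by no more than 1.48 times over replicate 1. The brightest of the bacterial tryptophan control probe sets stood at 1989, 2348 and 2229 on MOE430B, above the Osmr and Stat3 probe sets there, so these MOE430B signals add little to the MOE430A ones.

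Il6st was the member that varied most between replicates above the floor. Its brightest MOE430A probe set, 1452843_at, had 4210.3 in replicate 1, 9633 in replicate 2 and 12786 in replicate 3 (8877 ± 4338, SD, n = 3). The 1421239_at probe set had 930.5, 1387 and 3471, and 1460295_s_at had 1160.0, 1862 and 4227; these share a source sequence and are not independent of each other. On MOE430B, 1437303_at had 9133, 22298 and 24808. Replicate 1 was the lowest and replicate 3 the highest on all 4. Replicate 3 stood 3.04, 3.73, 3.64 and 2.72 times above replicate 1 on these probe sets in the order given, and replicate 2 stood 2.29, 1.49, 1.61 and 2.44 times above it. Where replicate 2 lay between the others differed by probe set: close to replicate 3 on 1452843_at and 1437303_at, and closer to replicate 1 on the other pair. The SD of Il6st on the log2 scale was 0.83, 0.97 and 0.94 on MOE430A and 0.79 on MOE430B. Of all probe sets above the floor, 98.9%, 99.5%, 99.4% and 97.8% on the same array type had a smaller one.

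Stat3 and Socs3, downstream of the receptors, were above the floor on every probe set. Stat3 was steady, with 7617, 7180.3 and 8126 on 1426587_a_at (7641 ± 474, SD, n = 3) and 6006, 6422 and 7521 on 1460700_at. It had 1314, 1014 and 1136 on 1424272_at and, on MOE430B, 1376, 1467 and 1258. No Stat3 probe set varied by more than 1.30-fold, and its SD on the log2 scale was between 0.09 and 0.18. Socs3 had 2478, 3603 and 3959 on 1416576_at (3347 ± 773, SD, n = 3) and 1557, 2269.9 and 2143 on 1455899_x_at, lowest in replicate 1 on both. Its remaining probe set, 1456212_x_at, had 1412, 1872 and 983, lowest in replicate 3. In the maker's naming an x marks probe sets that may also bind other transcripts. Over the 13 member probe sets above the floor on MOE430A the median SD was 0.36, against 0.24 for all 9600 above it, and 0.22 without replicate 1 (0.18 for all). Over the 3 on MOE430B it was 0.23, against 0.28 for all. That order was not stable: it was 0.31 against 0.24 without replicate 2, and 0.09 against 0.23 without replicate 3.

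**Figure D2:**
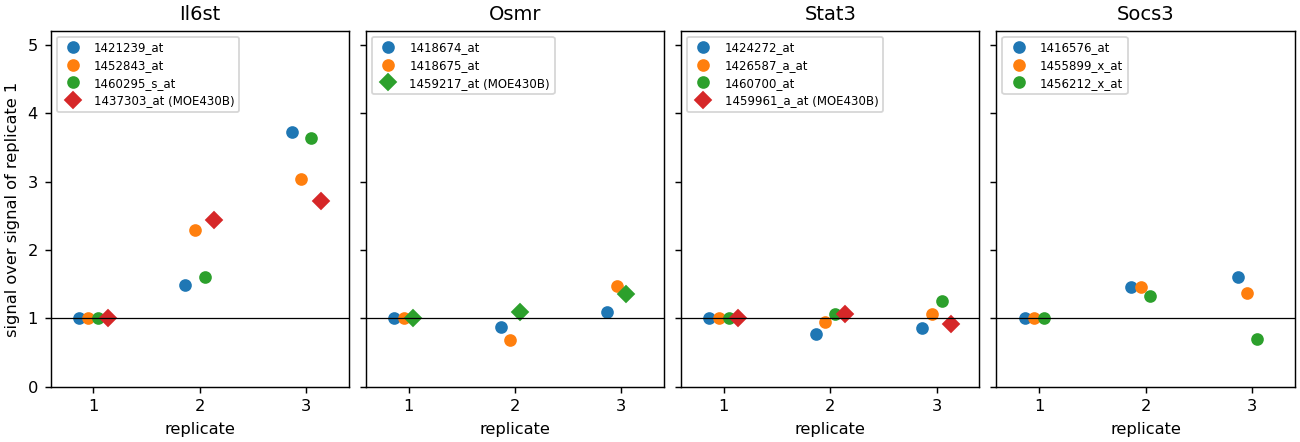
Signal of each probe set of Il6st, Osmr, Stat3 and Socs3 divided by that of replicate 1 on the same probe set, by replicate (circles MOE430A, diamonds MOE430B, linear axis). All 4 Il6st probe sets stand above 1 in replicates 2 and 3, reaching 3.73, while those of Stat3 stay between 0.77 and 1.25.

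Replicate 1 was then compared with replicates 2 and 3, because it alone came from another number of cells. The comparison was fitted with limma on log2(signal + 16) over all probe sets bright enough on average, and all values are replicate 1 minus the mean of the others. The test called 78 of 11066 MOE430A probe sets (0.705%) and 0 of 10594 on MOE430B (0%, with 767 at an unadjusted p under 0.05 and 0 called with an intensity trend). None of the 13 member probe sets tested on MOE430A or the 3 on MOE430B was called, and 3 and 1 of them, all of Il6st, had an unadjusted p under 0.05. Among the 16 member probe sets in the fit the largest differences were those of Il6st: -1.39 on 1452843_at (SE 0.37, 95% interval -2.16 to -0.63, limma adjusted p = 0.0879), -1.22 on 1421239_at (SE 0.43, adjusted p = 0.275), -1.26 on 1460295_s_at (SE 0.42, adjusted p = 0.219) and -1.36 on the MOE430B probe set (SE 0.37, adjusted p = 0.558). These sizes correspond to a signal 2.63, 2.34, 2.40 and 2.57 times higher in replicates 2 and 3, in the same order. The 9 member probe sets under the floor were not tested, and 2 of them had larger differences at these dim signals: 1.60 for Lif on 1450160_at and 1.46 for Clcf1 on 1437271_at, both higher in replicate 1. Replicate 1 has a single array of each type, so its own spread was not measured, and the fit had 1 residual degree of freedom. Most of each variance was thus borrowed from the other probe sets tested. The weight of that borrowed variance, in degrees of freedom, was 25.6 on MOE430A (148 with an intensity trend) and 3.49 on MOE430B. On 1421239_at, replicates 2 and 3 differed from each other by 1.31, against an SE of 0.43.

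Whether Il6st passed the threshold depended on the settings of the fit. With an intensity trend limma gave 1452843_at an adjusted p of 0.00582 and 1460295_s_at one of 0.0414, and in a fit limited to probe sets with every array over the floor 1452843_at had 0.0280. Over all 7 fits the adjusted p of 1452843_at ran from 0.00582 to 0.827, that of 1460295_s_at from 0.0414 to 0.978, that of 1421239_at from 0.0819 to 0.978 and that of the MOE430B probe set from 0.274 to 0.656. The direction was the same throughout, but replicate 1 was the lowest on every Il6st probe set, so these settings could hardly change it. On MOE430A, replicates 1 and 2 were scanned on the same day and went through the same fluidics station, the machine that washes and stains the arrays, and replicate 3 had another of each. Within that day, replicate 1 minus replicate 2 was -1.19 on 1452843_at, -0.57 on 1421239_at and -0.68 on 1460295_s_at. Against replicate 3 alone the same differences were -1.60, -1.88 and -1.85. On MOE430B all arrays shared a day, but replicate 1 alone was on another station, so on that array type an effect of the station cannot be told apart from one of replicate 1.

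Several other measures of the same arrays are set beside these values. The 3'/5' ratio of Gapdh, a gauge of RNA quality, was highest in replicate 1, with 1.27 on MOE430A against 1.16 and 0.85, and 1.32 on MOE430B against 1.24 and 0.80. For beta-actin it was 1.05 against 1.17 and 1.09, and 1.02 against 1.33 and 1.10. Of 12 fibroblast markers on MOE430A, 9 were lowest in replicate 1, and their summed signal was 703376, 791432 and 862787. None was at 0, and all 12 were above the floor on all 3 arrays. The summed signal of 10 macrophage markers was 9561, 9414 and 7457. Csf1r, Lyz2, Cd14, Fcgr1 and Laptm5 were above the floor (50%, against 54.7% of all genes). Ptprc, Cd68, Adgre1, Itgam and Tyrobp were not. Of 8 endothelial markers Kdr and Flt1 were above the floor (25%), and Pecam1, Cdh5, Tek, Tie1, Emcn and Esam were not. The summed signal of all 8 was 4552, 4147 and 3516. Flt1 alone, with 1893, 1401 and 196, set that order: the sum of the other 7 was 2659, 2746 and 3320, highest in replicate 3. The macrophage sum also changed its order, to 7686, 8232 and 6689, without Laptm5, and the fibroblast sum kept its order without Col1a1. These sums without 1 gene were chosen after seeing the data. The sum of 10 stem cell markers was 3482, 4781 and 3839.6, with all but Fgf4 and Esrrb not above the floor. Fgf4 counted through 1450282_at alone (1103, 1281 and 1152), its other probe sets being under the floor on every array. These sums are from MOE430A, but a marker counted as above the floor on either array type. Fcgr1, Flt1 and Esrrb did so only on MOE430B, Esrrb through an x probe set. The part of any of these measures in the Il6st values was not tested.

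Among the 16 probe sets in the fit, the 12 of the other members had smaller differences than those of Il6st. Ctf1 had a difference of -0.72 (SE 0.37, limma adjusted p = 0.642), and Socs3 had -0.60 on 1416576_at, -0.50 on 1455899_x_at and 0.06 on 1456212_x_at. Osmr had 0.03 and -0.01 on MOE430A and -0.28 on MOE430B. For Stat3 the values were 0.00 on 1426587_a_at, -0.21 on 1460700_at and 0.29 on 1424272_at, and 0.02 on MOE430B. Clcf1 had -0.06. These tests do not show that the genes were equal: the 95% interval of Stat3 on 1426587_a_at ran from -0.76 to 0.75, and that of Osmr on 1418674_at from -0.72 to 0.79. Replicate 1 was below both others for 7 of the 13 member probe sets on MOE430A (35.6% of all tested) and for 2 of 3 on MOE430B (33.9% of all tested). Of these 9 probe sets 4 belonged to Il6st. The median difference of the 13 was -0.21, against -0.01 over all 11066.

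**Figure D3:**
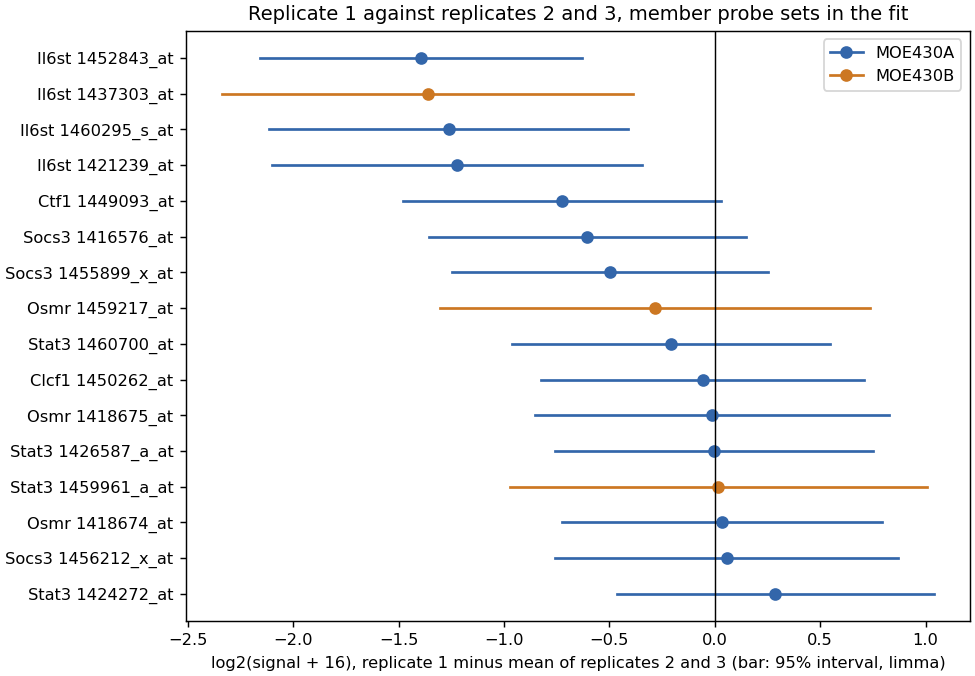
Difference in log2(signal + 16), replicate 1 minus the mean of replicates 2 and 3, for the 16 member probe sets in the fit, with limma's 95% interval (blue MOE430A, orange MOE430B). The 4 Il6st probe sets lie between -1.39 and -1.22 with intervals below 0, and the intervals of the other 12 include 0.

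The rest of the pathway was read from 6 lists of other genes. Among other ligands of the family 1 of 4 measured was above the floor, Osm, which encodes oncostatin M, the ligand of Osmr. It had 2790.5, 3359.9 and 1547 on MOE430B, where replicate 3 was under the highest tryptophan control. Ebi3, Il12a and Il31 were not above the floor. Among other receptors 1 of 4 was above it, Il6ra, the interleukin 6 receptor that recruits gp130, while Cntfr, Il27ra and Il31ra were not. Il6ra had 705, 1589 and 2293 on 1422270_a_at, lowest in replicate 1 as Il6st was, with a difference of -1.42 (SE 0.38, limma adjusted p = 0.0853, and 0.0235 to 0.846 over the 7 fits, under the threshold in 2 of them). Replicate 1 stood at only 1.02 times the floor on that probe set. The second Il6ra probe set was under the floor with 182, 51.9 and 294 and did not have replicate 1 lowest. The difference thus rested on 1 probe set.

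Of 14 kinases, STATs and adaptors 12 were above the floor, and of 15 inhibitors 13 were, where 54.7% of all genes were. The values given for the listed genes are those of each gene's brightest probe set on MOE430A unless another is named. Jak1, a kinase bound to gp130, had 10508, 10114 and 9247. Ptpn11, the phosphatase SHP2 that links gp130 to the ERK pathway, had 7239.6, 7108 and 8167, and the adaptor gene Shc1 had 4441, 4731 and 7408. These probe sets of Jak1 and Ptpn11 varied by 1.14-fold and 1.15-fold, but others did not follow them: Ptpn11 had 1408, 751 and 1249 on 1421196_at, above the floor on each array, and Jak1 had 496, 365 and 1077 on 1433804_at. Both Shc1 probe sets were highest in replicate 3. Stat4 and Stat5a were not above the floor. Among inhibitors, Socs5 had 6928, 5160.0 and 5233, Pias4 had 5972, 5195 and 5052, and the phosphatase gene Ptpn1 had 2939, 3139 and 3444. Socs1 and Socs6 were not above the floor.

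**Figure D4:**
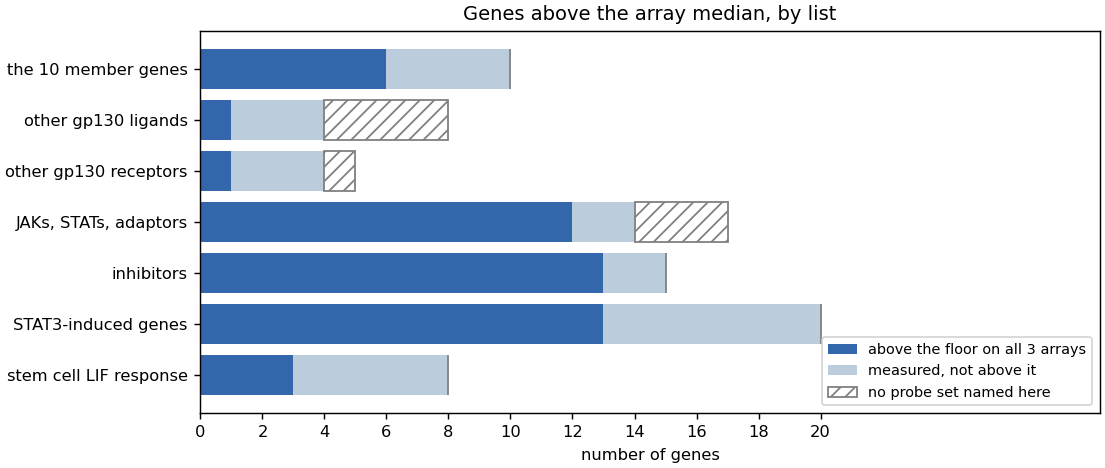
Number of genes above the array median on all 3 arrays of a type (dark), measured but not above it (light) and with no probe set named here (hatched), for the 10 member genes and 6 lists of other pathway genes. The relay and the inhibitors stand at 12 of 14 and 13 of 15, the other ligands and receptors at 1 of 4 each.

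Of 20 genes known to be induced by STAT3 in some cell types, 13 were above the floor (65%, against 54.7% of all genes). Timp1, a protease inhibitor gene, had 41729, 22827 and 29263, highest in replicate 1. Hif1a, the hypoxia factor gene, had 9089, 8267 and 7421, and the survival gene Mcl1 had 5193, 4774 and 4781. Other probe sets of both did not follow these. Hif1a had 1316, 1123 and 2224 on 1448183_a_at, and 880, 1327 and 879 on 1416035_at. Over the Mcl1 probe sets in the fit the difference ran from -0.49 on 1456381_x_at to 0.42 on 1416881_at. Pim1, Pim3, Fos, Myc, Lcn2, Saa3 and Batf were not above the floor. Many of these genes also answer to other signals, so their levels do not measure STAT3 activity. Of 8 genes of the stem cell response to LIF 3 were above it: Klf5 (1363, 1248 and 2017), Tbx3 (1172, 773 and 1037) and Esrrb. Neither MOE430A probe set of Esrrb was above the floor on all 3 arrays, with 776, 823 and 564 on 1422986_at and 549, 597 and 427 on 1436926_at, and the gene counted through an MOE430B probe set. Tfcp2l1, Gbx2, Nanog, Pou5f1 and Sox2 were not. Over the 6 lists limma called 0 of 70 probe sets on MOE430A and 0 of 13 on MOE430B in either direction, with 6 and 0 at an unadjusted p under 0.05. The 6 were 8.57% of the 70, and 900 of all 11066 were 8.13%, about the same share. On MOE430A these were Il6ra, Pias3 and Ptpn2, lower in replicate 1, and Ccl2, Ier3 and Myc, higher in it. Another tested probe set had a smaller difference in the same direction for Pias3 (-0.28 against -0.85) and for Ptpn2 (-0.23 against -1.02). With an intensity trend, and in the fit limited to probe sets with every array over the floor, limma called 1, Il6ra.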

How the data were processed

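Per the labels, biotin-labelled total RNA (RNeasy) was hybridized to MOE430A and MOE430B arrays, 3 replicates each. The authors deposited 1 signal intensity per probe set and array on a linear scale, made with MAS5 per the submitters' processing notes; how it was scaled, and in which version, is not given in the sources used here. Each array's mean without the top and bottom 2% came to 1499.8 on MOE430A and 1499.7 on MOE430B, so every array stood at nearly the same mean. No level of one array type was set against the other. The instrument records' other entries, per the file headers, gave only scan day and station. The number of arrays limits the precision.

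Probe sets were named from GEO's platform annotation, with symbols updated by gene identifier against RefSeq (20351 of 20380 on MOE430A and 14486 of 14661 on MOE430B matched); 691 and 245 with several symbols are not named, and 1555 and 7605 are unnamed here. A gene counted as above the floor where at least 1 probe set exceeded the array median on all 3 arrays of a type. Replicate 1 was compared with the others by limma 3.58.1 (R 4.3.3; lmFit, eBayes) on log2(signal + 16), which understates changes of dim genes, over probe sets whose mean log2 signal exceeded the mean log2 floor. Benjamini-Hochberg adjustment ran over all of them, at a threshold of 0.05. The script was tested on simulated data drawn independently from the variance that limma had fitted. Such data cannot show how the calls behave with batches or related probe sets. Members and lists were chosen with earlier results of these data known. All members are named, and from each list the 3 brightest above the floor by their brightest probe set, those called, and those not above it. Genes at an unadjusted p under 0.05 were named after their values were seen. Alternatives were other pseudocounts, filters, floors, quantile normalization, an intensity trend and leaving out a replicate.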

Additional observations from a re-analysis of the deposited data

How the results depend on the processing

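The number of MOE430A probe sets that limma called, 78, became 0 with no filter on low signals (1297 at an unadjusted p under 0.05), 0 with quantile normalization (750) and 164 with an intensity trend. On MOE430B it was 0 in all 7 fits. The count of 6 member genes above the floor was between 4 and 8 under the other floors, and 6 without any 1 replicate and by the brightest probe set only. Of all genes, 79.7% were above a signal of 200, 44.0% above the highest tryptophan control and 30.4% above the 75th percentile. Among the lists, the other ligands came to 2 where the floor was a signal of 200 and to 0 with either the 75th percentile or the highest tryptophan control. The other receptors came to 2 with a fixed signal of 200 and to 0 with the 75th percentile, and without 1 replicate they ranged from 1 to 2. With the 75th percentile the relay list came to 6, the inhibitors to 8, the STAT3-induced genes to 8 and the stem cell response to 1. By the brightest probe set only, the inhibitors came to 10 of 15 and the relay list to 11 of 14, against 49.9% of all genes. The stem cell response came to 2 of 8 in that setting, and the other lists did not change. Directions were compared for member probe sets only. Of these only Il6st ones were called in any fit. All Il6st probe sets kept their direction, which the settings could hardly change with replicate 1 the lowest on each. Some uncalled probe sets of Clcf1, Osmr, Stat3 and Socs3 changed sign between settings, while the other member probe sets in the fit kept theirs. The difference of Osmr on 1418675_at ran from -0.56 to 0.54, and that of Socs3 on 1456212_x_at from -0.40 to 0.52. Leaving out replicate 2 or 3 left 1 array against 1, values with no test, and leaving out replicate 1 left nothing to compare. No paired analysis was possible because the array types hold different probe sets and were not compared with each other. Depth does not apply; a signal under the array median only says that the probe set was dim.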

Other observations

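The relatives of Socs3 were not alike in how they stood to the floor. Cish, a STAT5 target and inhibitor gene, had a MOE430A signal of 2138, 2332 and 2089, above the floor in every replicate. Socs1 had 843, 1031 and 649, above it in 2 of 3. Socs5 stood above it on both of its MOE430A probe sets, 1423349_at and 1423350_at, and was highest in replicate 1 on both. The STAT3-induced transcription factor genes Junb (1718, 1905 and 1820) and Bcl3 (898, 1006 and 1200) were above the floor in every replicate. These genes were picked after their values were seen.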
